A study of Mus musculus with 12 samples.

Results

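The cyclin-dependent kinase inhibitors are small proteins that hold the cell cycle by binding the kinases that drive it. The genes were chosen by symbol as the 3 members of the Cip/Kip family (Cdkn1a, Cdkn1b and Cdkn1c) and the 4 members of the INK4 family (Cdkn2a, Cdkn2b, Cdkn2c and Cdkn2d), 7 of the 18908 genes measured. INK4 proteins bind the kinases CDK4 and CDK6 and keep cyclin D from activating them, while Cip/Kip proteins bind cyclin and kinase complexes more broadly, including those of CDK2. Both act upstream of the retinoblastoma protein, which represses the E2F factors that switch on replication genes. In cultured marrow stromal cells, p16 and p21, the products of Cdkn2a and Cdkn1a, are widely used as marks of senescence, and the level of p27, from Cdkn1b, is set largely by protein turnover.

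The RNA came from MSCs, the mesenchymal stromal cells of mouse bone marrow, cultured in DMEM medium that held 10% FBS. The 12 libraries fell into young cells with vehicle (3 libraries, replicates 2, 4 and 5), old cells with vehicle (6 libraries) and old cells with 1 µM melatonin, the pineal hormone, for 24 h (3 libraries, replicates 1, 3 and 5). Of the old vehicle libraries, replicates 2, 8 and 9 share a table with the young libraries and give the age comparison, and replicates 1, 3 and 5 share a table with the melatonin libraries and give the melatonin comparison. Age is labelled only as young or old, and no label gives the strain, the vehicle, the number of animals or whether cultures were pooled, so every p-value measures the spread between libraries. For replicates 2, 8 and 9 and the young libraries the word vehicle comes from the title alone, and every library carries the same treatment text. Replicates are named by the number in the title.

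Each library held between 20595378 and 21309663 estimated counts. Levels are CPM (estimated counts relative to library size, scaled by TMM over all 12 libraries) unless TPM, the authors' unit that also corrects for gene length, is named. Of 15 mesenchymal markers 14 had a median above 1 CPM, and 8 neutrophil, 5 lymphoid and 4 erythroid markers summed to at most 7.21, 0.717 and 0.912 CPM in any library. Lepr, a mark of marrow stroma, was at 25.7 and 25.9 CPM in old vehicle replicates 2 and 1. Every other library held at most 1.77 CPM of it, and the library labelled melatonin 5 held 0. The 6 endothelial markers summed to 7.04 to 64.4 CPM and were highest in young replicate 2 (51.2 CPM) and the library labelled melatonin 1 (64.4 CPM), the pair where Cdkn2a and Cdkn1c were also highest, and their part in those levels was not tested. The 20 macrophage markers were uneven. They summed to 16077 to 21262 CPM in old vehicle replicates 3, 5, 8 and 9 and to 78.8 to 1162 CPM in the other 8 libraries. In bulk RNA, fewer cells of a type and less RNA per cell cannot be told apart.

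The libraries of both tables formed 6 mutual pairs, and this touches every result. Over 14133 genes, young replicates 2, 4 and 5 were closest to the libraries labelled melatonin 1, 3 and 5, with Pearson r of 0.990, 0.994 and 0.993 for log2 CPM. Old vehicle replicates 2, 8 and 9 were closest to old vehicle replicates 1, 3 and 5 (r = 0.994, 0.992 and 0.980). Within a group of 1 table r lay between 0.871 and 0.945. The paired libraries still differed by more than counting error, since the median chi-square over genes was 1.77 to 6.09 times its expectation, against 24.9 to 66.5 times within groups, so they were kept as separate libraries. The inhibitors followed the pairs. Of 42 values (7 genes in 6 pairs), 40 differed by less than 1.5-fold between the paired libraries. The exceptions were Cdkn1c at 8.81-fold and Cdkn2a at 1.63-fold, both between old vehicle replicates 9 and 5. The comparisons below are therefore not independent of each other, and the melatonin group is called by its label. A mislabelled or re-used column and cells in a like state cannot be told apart from these files, so every value of the melatonin comparison carries that doubt.

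**Figure D1:**
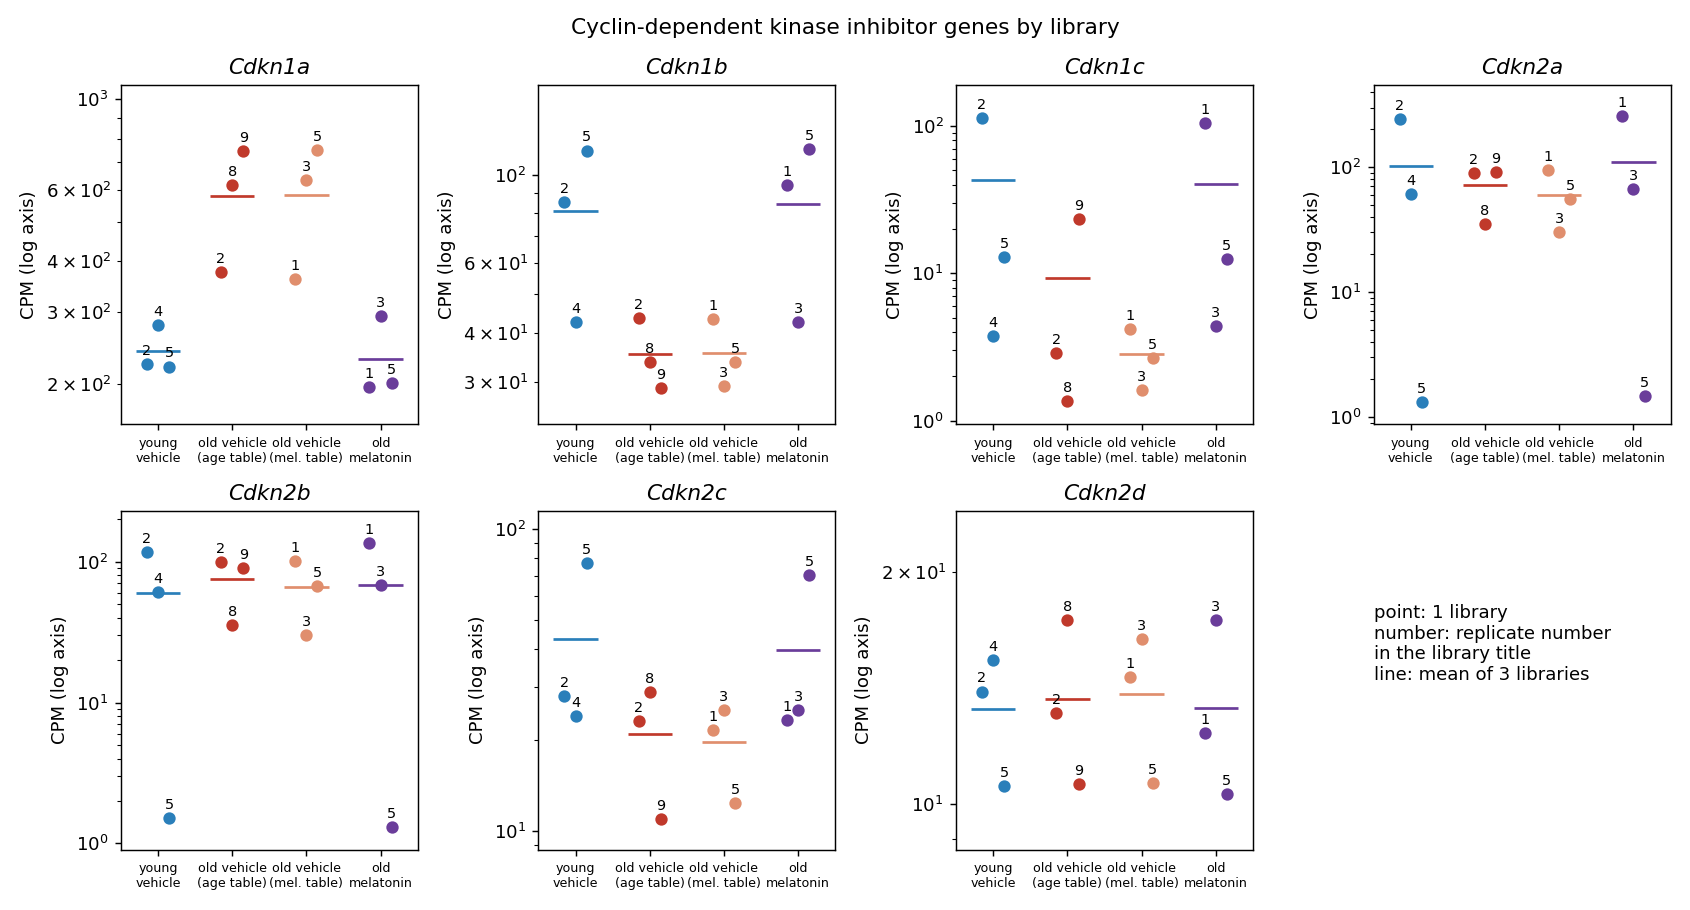
Levels of the 7 inhibitor genes in CPM (log axis) in each of the 12 libraries, with the groups on the horizontal axis, a point per library, its title number above it and a line at the mean of 3 libraries. Cdkn1a is higher in all 6 old vehicle libraries (362 to 752 CPM) than in the other 6, and Cdkn2a and Cdkn2b are near 1 CPM in young replicate 5 and in the library labelled melatonin 5.

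Per length of transcript, Cdkn1a led the family with a median of 405 TPM over the 12 libraries, followed by Cdkn2a (174 TPM), Cdkn2b (115 TPM), Cdkn1b (42.2 TPM), Cdkn2c (31.6 TPM), Cdkn2d (26.1 TPM) and Cdkn1c (5.31 TPM). Most of these neighbours changed places in some libraries. Cdkn1a was above Cdkn2a in 10 of 12 libraries, Cdkn2b above Cdkn1b in 10, Cdkn1b above Cdkn2c in 9, Cdkn2c above Cdkn2d in 10 and Cdkn2d above Cdkn1c in 9, so none of these steps exceeded the spread between libraries. Cdkn2a alone kept its place above its neighbour in the order, Cdkn2b, in 12 of 12.

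In the summed TPM of the 7 genes the families traded shares between libraries. Cip/Kip transcripts made up 31.9 to 80.4% and INK4 transcripts 19.6 to 68.1%. The lowest Cip/Kip shares were 35.2% in young replicate 2 and 31.9% in the library labelled melatonin 1, where Cdkn2a was the most abundant inhibitor. The highest were 78.0% and 80.4% in old vehicle replicates 8 and 3, where Cdkn1a made up 74.6% and 77.4%.

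**Figure D2:**
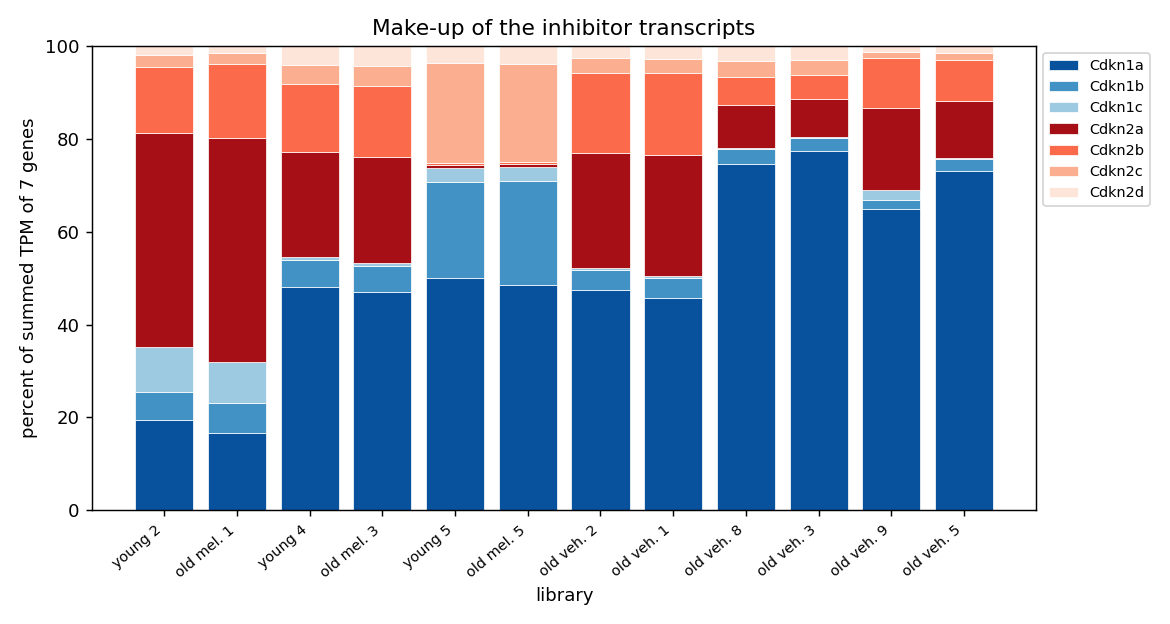
Share of each gene in the summed TPM of the 7 inhibitors (vertical axis, percent) in each library (horizontal axis), with libraries of a matched pair side by side, Cip/Kip genes in blue and INK4 genes in red. Paired libraries have like make-up, and Cdkn2a ranges from 0.642% in young replicate 5 to 48.2% in the library labelled melatonin 1.

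Cdkn1a (gene identifier 12575) encodes p21, the Cip/Kip inhibitor that p53 induces after DNA damage. It stood at 224, 279.5 and 220.5 CPM in young replicates 2, 4 and 5, and at 196, 293 and 201 CPM in the libraries labelled melatonin 1, 3 and 5. In old vehicle cells the lowest of 6 libraries was at 362 CPM, the median at 626 CPM and the highest at 752 CPM. Every old vehicle library thus lay above every young and every melatonin-labelled library.

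The RefSeq table places the gene on chromosome 17 and lists more than 1 start for it. The 250 bases before its upstream start are shown because they hold matches to the p53 recognition decamer, and p53 target genes are set beside Cdkn1a below. They lie at chr17:29090729-29090978 on the plus strand of GRCm38.p6, an earlier build than the mm39 named for the files. The capitals mark the 2 matches, which do not overlap each other, and both strands were searched.
Cdkn1a upstream start: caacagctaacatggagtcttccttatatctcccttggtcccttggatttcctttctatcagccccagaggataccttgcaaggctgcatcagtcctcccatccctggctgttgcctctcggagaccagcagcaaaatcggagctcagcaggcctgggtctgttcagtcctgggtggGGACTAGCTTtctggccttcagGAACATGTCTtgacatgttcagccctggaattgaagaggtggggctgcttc
Of 32851 promoter windows of this length, 7.13% held at least 1 match. Among the inhibitors Cdkn2d also held 1 match, and the window before the downstream start of Cdkn1a held 0, which says only that these letters are not in it.

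In the age comparison the mean of Cdkn1a was 240.1 ± 27.7 CPM for young and 585 ± 194 CPM for old libraries (SD, n = 3 each, CPM scaled within the table). The log2 change was 1.29 ± 0.29 (SE), 2.44-fold (unadjusted p = 0.00442, edgeR adjusted p = 0.315 over 13547 genes), which does not pass 0.05. Its p was smaller than that of all but 0.827% of the genes tested. In the melatonin comparison the libraries labelled melatonin averaged 227 ± 47.9 CPM and their old vehicle libraries 590.4 ± 209 CPM, a log2 change of -1.38 ± 0.34 (unadjusted p = 0.00590, edgeR adjusted p = 0.286 over 13471 genes). By DESeq2 the gene passed in both, with adjusted p = 0.00516 and 0.00806. Without old vehicle replicate 1 it also passed with the melatonin label, at -1.63 ± 0.26 and an edgeR adjusted p = 0.0414. That fit called 602 genes. It kept only old vehicle replicates 3 and 5, with macrophage sums of 21262 and 16077 CPM, so macrophage content and the label cannot be told apart in it. Over the alternatives run, the adjusted p ranged from these DESeq2 values to 1.0.

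Macrophage transcripts moved with Cdkn1a. The 4 old vehicle libraries with macrophage sums of 16077 CPM or more held 618 to 752 CPM of Cdkn1a, and old vehicle replicates 1 and 2, with sums of 1162 and 1061 CPM, held 362 and 376 CPM. Young replicate 2 and the library labelled melatonin 1 had nearly the same macrophage sums, 940 and 993 CPM, and held 224 and 196 CPM. Each side of this contrast is a matched pair, so its 2 libraries do not count as independent. Without the 2 macrophage-rich libraries of each table, which leaves a lone old vehicle library assumed to vary like the other group, the log2 change was 0.64 ± 0.29 with age and -0.66 ± 0.36 with the melatonin label (edgeR adjusted p = 1.0 for each). With the macrophage mean as a covariate it was 0.70 ± 0.48 and -0.71 ± 0.58. The direction was thus kept at a smaller size, and the part of macrophage cells in the remainder was not tested.

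**Figure D3:**
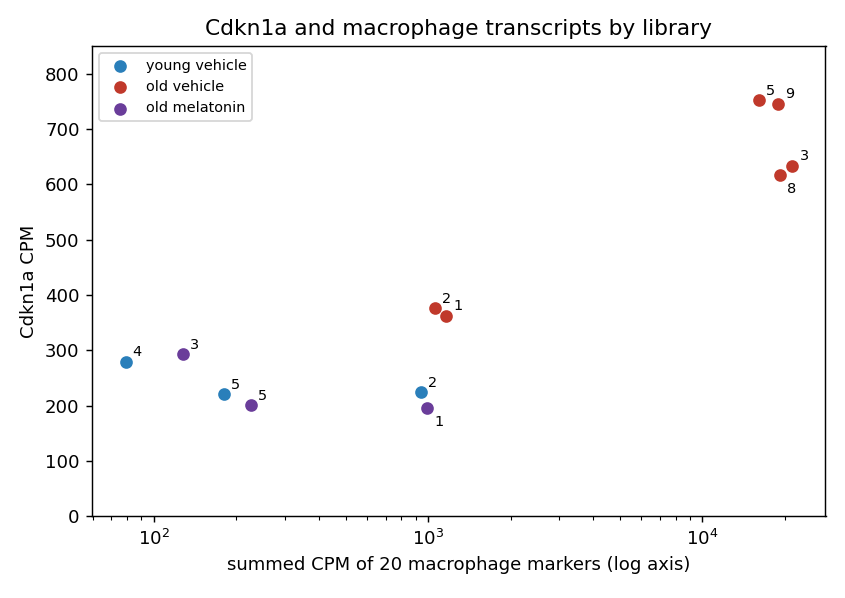
Cdkn1a in CPM (vertical axis, from 0) against the summed CPM of 20 macrophage markers (horizontal log axis) in the 12 libraries, a point per library coloured by group and marked with its title number. The 4 macrophage-rich old vehicle libraries are highest, and old vehicle replicates 1 and 2 lie above young replicate 2 and the library labelled melatonin 1 at like macrophage sums. Old vehicle replicates 1 and 2 are a matched pair, as are young replicate 2 and the library labelled melatonin 1.

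Cdkn1b (12576) encodes p27, the Cip/Kip inhibitor of resting cells. It ran opposite to Cdkn1a, at 85.6, 42.4 and 115 CPM in young replicates 2, 4 and 5 and at 94.3, 42.6 and 117 CPM in the libraries labelled melatonin 1, 3 and 5. The old vehicle libraries ran from 29.0 CPM over a median of 33.8 CPM to 43.5 CPM. The groups met at their edges, because young replicate 4 at 42.4 CPM lay below old vehicle replicate 2 at 43.5 CPM. The log2 change was -1.19 ± 0.39 with age (unadjusted p = 0.0222, edgeR adjusted p = 0.315) and 1.23 ± 0.40 with the melatonin label (unadjusted p = 0.0212, edgeR adjusted p = 0.294). It kept its sign under every alternative run, from -1.49 to -0.86 and from 0.95 to 1.56. Without both macrophage-rich libraries it was -0.90 ± 0.63 and 0.96 ± 0.64. The ratio of Cdkn1a to Cdkn1b in TPM joins these opposite movements. It was 10.5 to 32.5 in the old vehicle libraries, 3.31, 8.31 and 2.42 in young replicates 2, 4 and 5, and 2.62, 8.69 and 2.17 in the libraries labelled melatonin 1, 3 and 5. The old vehicle ratios lay above those of the other 6 libraries, as Cdkn1a alone already did. Because the ratio joins movements already seen and the libraries form matched pairs, it is a description and adds no separate evidence.

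Cdkn1c (12577) encodes p57, an imprinted Cip/Kip inhibitor expressed from the maternal allele and known for holding stem cells in quiescence. Its level was carried by single libraries. It stood at 113 CPM in young replicate 2 and 105 CPM in the library labelled melatonin 1, a matched pair, and at 3.74 and 12.9 CPM in young replicates 4 and 5. Old vehicle libraries ranged from 1.36 CPM over a median of 2.78 CPM to 23.6 CPM, the last in replicate 9. The young and old vehicle groups of the age comparison overlapped, and the log2 change of -2.22 ± 1.55 (edgeR adjusted p = 0.541) turned to 0.18 without young replicate 2 and was -4.34 without old vehicle replicate 9. In the melatonin comparison the groups did not overlap, since old vehicle replicates 1, 3 and 5 were at 4.18, 1.62 and 2.67 CPM and the libraries labelled melatonin 3 and 5 at 4.43 and 12.6 CPM. The gap between 4.18 and 4.43 CPM is narrow. The log2 change was 3.84 ± 1.26 (unadjusted p = 0.0216, edgeR adjusted p = 0.294, or adjusted p = 0.00686 by DESeq2 within a range of 0.00686 to 1.0 over the alternatives), and 1.56 ± 0.65 without the library labelled melatonin 1.

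The genes beside Cdkn1c on chromosome 7 are given for the same libraries. Of 7 listed genes of that imprinted region, 4 passed the filter on low counts. Slc22a18, an imprinted transporter gene next to it, differed by 1.84 ± 0.68 with age and -1.48 ± 0.68 with the melatonin label (edgeR adjusted p = 0.331 and 0.389), opposite in sign to Cdkn1c. It was at 7.39 to 20.9 CPM in the macrophage-rich old vehicle libraries, and the part of macrophage cells was not tested. Old vehicle replicates 1 and 2, at 4.99 and 5.83 CPM, were near young replicate 2 (4.33 CPM) and the library labelled melatonin 5 (5.28 CPM). Old vehicle replicate 9 was the highest old vehicle library for both genes, so the opposite signs do not hold library by library. Cd81, the gene of a tetraspanin, differed by 0.52 ± 0.29 and -0.56 ± 0.28. Nap1l4, a histone chaperone gene, differed by 0.20 ± 0.17 and -0.24 ± 0.17. Tssc4 was nearly level at 0.02 ± 0.21 and -0.02 ± 0.18. Phlda2, an imprinted growth regulator, was at or below 0.202 CPM in every library, and Kcnq1, a potassium channel gene, reached 9.90 and 8.20 CPM in old vehicle replicates 8 and 3 and at most 0.0956 CPM elsewhere.

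Cdkn2a (12578) encodes 2 unrelated proteins from separate first exons, the INK4 inhibitor p16 and ARF, which stabilises p53 by binding MDM2. The tables give 1 value for the gene, so the transcripts cannot be told apart here. Cdkn2b (12579), the neighbouring gene, encodes p15, an INK4 inhibitor induced by TGF-beta. The RefSeq table lists Mtap, Cdkn2a, Cdkn2b and Dmrta1 in this order on chromosome 4. The 250 bases before both Cdkn2a starts and before the Cdkn2b start are shown because RNA of both genes rose and fell together across the libraries. All are on the minus strand of GRCm38.p6, and the capitals mark CG dinucleotides, the bases that carry DNA methylation in mammals. They lie at chr4:89294620-89294869 (ARF), chr4:89282193-89282442 (INK4A) and chr4:89311033-89311282 (Cdkn2b).
Cdkn2a ARF start: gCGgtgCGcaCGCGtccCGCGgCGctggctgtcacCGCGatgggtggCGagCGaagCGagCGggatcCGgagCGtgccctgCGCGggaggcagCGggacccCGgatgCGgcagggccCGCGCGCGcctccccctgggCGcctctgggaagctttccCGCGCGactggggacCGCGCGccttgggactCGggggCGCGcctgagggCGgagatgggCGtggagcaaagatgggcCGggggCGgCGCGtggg
Cdkn2a INK4A start: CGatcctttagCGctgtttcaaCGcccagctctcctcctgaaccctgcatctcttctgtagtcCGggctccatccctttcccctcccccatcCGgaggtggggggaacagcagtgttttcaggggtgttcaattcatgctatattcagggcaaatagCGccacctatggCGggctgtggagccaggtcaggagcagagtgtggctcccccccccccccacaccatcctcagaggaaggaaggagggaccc
Cdkn2b start: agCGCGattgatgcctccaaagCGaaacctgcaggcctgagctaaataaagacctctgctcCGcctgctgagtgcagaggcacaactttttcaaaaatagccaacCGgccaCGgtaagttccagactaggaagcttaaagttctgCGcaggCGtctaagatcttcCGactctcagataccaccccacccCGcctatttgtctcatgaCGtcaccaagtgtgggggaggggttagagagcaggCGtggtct
The windows hold 40, 7 and 12 CG dinucleotides, and 1.31%, 46.3% and 33.5% of all promoter windows hold at least as many. No methylation was measured here.

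Cdkn2a and Cdkn2b rose and fell together over the pairs of libraries and not with the age labels. Cdkn2a was at 241, 61.3 and 1.31 CPM in young replicates 2, 4 and 5 and at 259, 66.5 and 1.46 CPM in the libraries labelled melatonin 1, 3 and 5. The old vehicle libraries lay between these extremes, from 30.3 CPM over a median of 72.4 CPM to 94.0 CPM. Cdkn2b was at 117, 60.8 and 1.51 CPM in young replicates 2, 4 and 5, at 135, 68.5 and 1.31 CPM in the libraries labelled melatonin 1, 3 and 5, and from 30.2 CPM over a median of 78.4 CPM to 101 CPM in old vehicle cells. The highest and the lowest library of both genes belonged to the young and melatonin-labelled groups.

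Young replicate 5 and the library labelled melatonin 5 stood apart. They held 26 and 29 counts of Cdkn2a and 30 and 26 counts of Cdkn2b, above the 3 counts taken as the limit of a count of 0. Their mean of 1.38 CPM for Cdkn2a compared with 102 ± 80.9 CPM in the other 10 libraries (SD), and 1.41 CPM for Cdkn2b with 80.4 ± 34.1 CPM. These libraries were singled out after their values were seen, so no test is given. They stood apart in some stromal markers too. The 15 mesenchymal markers summed to 48586 and 46821 CPM, against 7750 to 23596 CPM in the other 10 libraries. Col1a1 (23308 and 21393 CPM) and Col1a2 (19856 and 19790 CPM) made up most of these sums, which therefore do not describe the whole list. Pdgfra was also highest there, at 599 and 653 CPM, while Pdgfrb, at 668 and 662 CPM, lay inside the range of the other libraries. Grem1, a stromal BMP antagonist, was lower, at 0.656 and 0.754 CPM, against at least 14.7 CPM elsewhere. The part of these differences in the Cdkn2a and Cdkn2b levels was not tested. Mtap, the next gene, which encodes an enzyme of methionine salvage, was at 88.3 and 85.5 CPM in the same libraries, within the 64.0 to 162 CPM of the other 10. Dmrta1 on the other side was at or below 0.353 CPM everywhere. The TPM ratio of Cdkn2a to Cdkn2b was 1.34 to 1.75 in 10 libraries, including young replicate 5 and the library labelled melatonin 5. It was 3.26 in young replicate 2 and 3.02 in the library labelled melatonin 1.

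No difference of either gene between groups passed the test. Cdkn2a changed by -0.50 ± 1.38 with age (edgeR adjusted p = 0.893) and by 0.85 ± 1.39 with the melatonin label (0.792), and Cdkn2b by 0.33 ± 1.20 (0.922) and 0.03 ± 1.27 (0.993). These SEs leave changes of several-fold in either direction undetectable with 3 libraries a group. The sign turned for both genes as single libraries were left out. Without young replicate 2 the age change of Cdkn2a was 1.24, and without young replicate 5 that of Cdkn2b was -0.25. Over the 12 libraries, which form 6 pairs, the widest range of any inhibitor was that of Cdkn2a, at 197-fold, and 5.01% of the 13014 genes with a mean of at least 1 CPM ranged as widely.

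Cdkn2c (12580) encodes p18, an INK4 inhibitor that also restrains stem cell self-renewal. It was highest where Cdkn2a and Cdkn2b were lowest. Young replicate 5 held 77.2 CPM and the library labelled melatonin 5 held 70.6 CPM, against 11.0 to 28.9 CPM in the other 10 libraries. Young replicates 2 and 4 were at 28.1 and 24.1 CPM, inside the old vehicle range of 11.0 to 28.9 CPM. Old vehicle replicates 9 and 5 were lowest, at 11.0 and 12.4 CPM. Cdkn1b was also highest in the pair that led Cdkn2c, at 115 and 117 CPM. The log2 change of Cdkn2c was -1.03 ± 0.57 with age (edgeR adjusted p = 0.458) and 0.99 ± 0.52 with the melatonin label (0.432), and it shrank to -0.32 without young replicate 5 and to 0.31 without the library labelled melatonin 5.

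Cdkn2d (12581) encodes p19, the INK4 inhibitor that is distinct from the ARF product of Cdkn2a. It varied least of the 7 genes, 1.68-fold over all libraries. Young replicates 2, 4 and 5 were at 14.0, 15.4 and 10.6 CPM, the libraries labelled melatonin 1, 3 and 5 at 12.4, 17.4 and 10.3 CPM, and old vehicle libraries ran from 10.6 CPM over a median of 13.9 CPM to 17.3 CPM. The groups overlapped throughout. The log2 change was 0.06 ± 0.28 with age and -0.09 ± 0.29 with the melatonin label (edgeR adjusted p = 0.943 and 0.903), and on the authors' TPM scale the log2 ratio of means had the other sign, at -0.12 and 0.079.

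**Figure D4:**
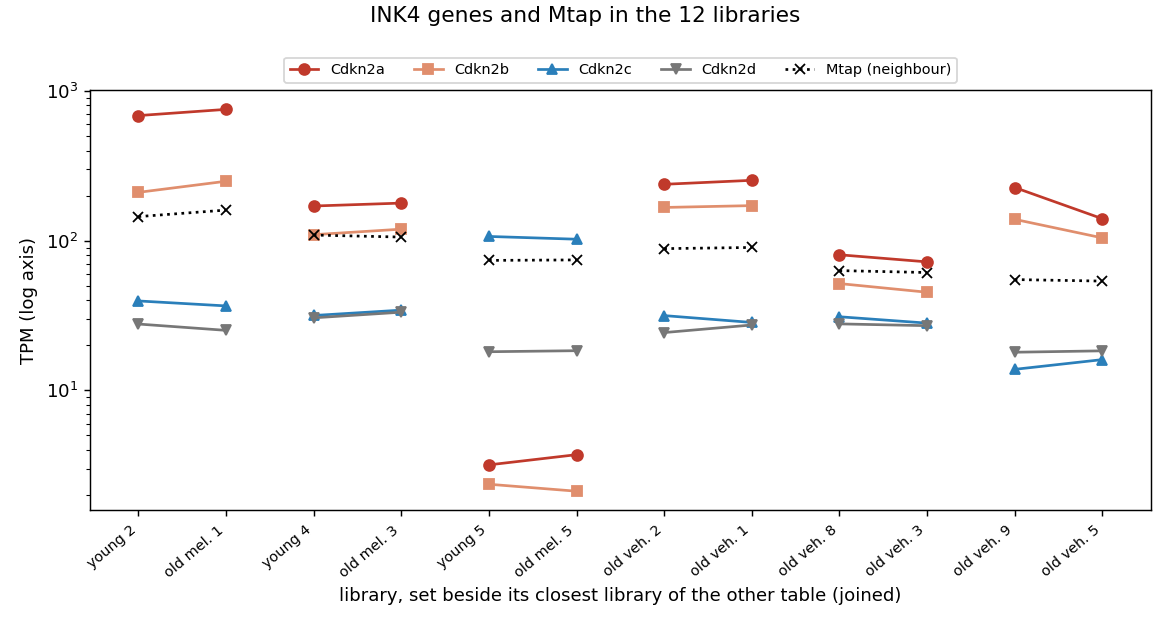
TPM (log axis) of the 4 INK4 genes and of Mtap, the neighbour of Cdkn2a, in the 12 libraries, with each library joined to its closest library of the other table. Cdkn2a and Cdkn2b drop to between 2.12 and 3.72 TPM in young replicate 5 and the library labelled melatonin 5, where Cdkn2c is at 107 and 102 TPM and Mtap at 73.8 and 74.4 TPM.

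Over all 7 genes, each of which passed the filter on low counts, 0 passed an edgeR adjusted p of 0.05 in either comparison, as did 0% of all genes tested. At an unadjusted p under 0.05 stood Cdkn1a (higher) and Cdkn1b (lower) with age, 2 of 7 beside 13.8% of all genes, of which 8.81% were higher and 4.95% lower. With the melatonin label these were Cdkn1a (lower), Cdkn1b and Cdkn1c (both higher), 3 of 7 beside 14.2% of all genes, of which 9.45% were lower and 4.76% higher. All of these are Cip/Kip genes. The groups did not overlap with age for Cdkn1a alone, which was above, beside 9.28% of all genes above and 9.23% below. With the melatonin label they did not overlap for Cdkn1a, below, and Cdkn1c, above, beside 9.78% of all genes below and 9.09% above. DESeq2 called 863 genes with age and 895 with the melatonin label, and limma-voom called 0 in each. Without old vehicle replicate 1, which leaves only macrophage-rich old vehicle libraries, edgeR called 602 genes with the melatonin label, Cdkn1a among them.

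**Figure D5:**
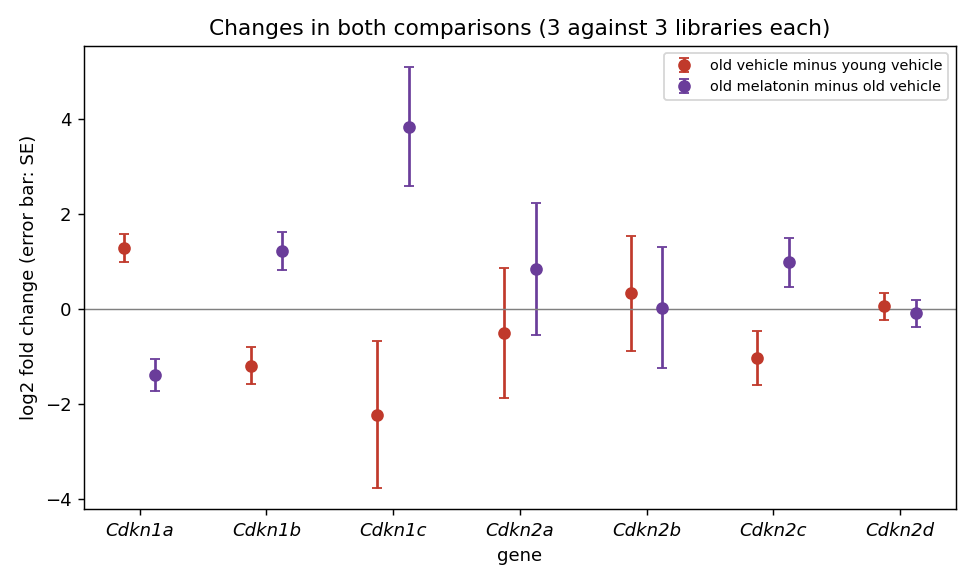
Log2 fold change with its SE (vertical axis) for each inhibitor gene (horizontal axis) in the age comparison (red) and the melatonin comparison (purple), with 3 against 3 libraries each. Cdkn1a lies at 1.29 and -1.38 and Cdkn1b at -1.19 and 1.23. Their SE bars are clear of 0, as are those of Cdkn1c and Cdkn2c, while those of Cdkn2a, Cdkn2b and Cdkn2d cross it. A bar clear of 0 does not mean that the gene passed the adjusted threshold.

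The partners and targets of the inhibitors were read from lists of the pathway, whose changes are given as old minus young and as melatonin label minus old vehicle. In all lists 0 genes passed the edgeR adjusted threshold. Of all 13547 genes tested with age, 6466 were higher and 7081 lower. Of all 13471 tested with the melatonin label, 6968 were higher and 6503 lower. Of 14 genes of kinases and cyclins, 4 were higher and 10 lower with age, with a median log2 change of -0.39 against -0.03 over all genes. Cdk6, a kinase bound by INK4 proteins, had means of 36.3 ± 10.4 CPM for young and 99.4 ± 62.1 CPM for old libraries (SD, n = 3), and differed by 1.45 ± 0.53 on the log2 scale. Macrophage markers moved with it. Cdk6 stood at 97.0 to 161 CPM in the 4 macrophage-rich libraries, old vehicle 3, 5, 8 and 9. In old vehicle replicates 1 and 2 it was at 38.8 and 37.1 CPM, inside the 29.1 to 49.6 CPM of the young libraries, and the part of macrophage cells was not tested. Its partner kinase gene Cdk4 differed by -0.61 ± 0.30 and the cyclin D1 gene Ccnd1 by 0.96 ± 0.43. Cdk4 was at 117 to 208 CPM in the macrophage-rich libraries and at 245 and 251 CPM in old vehicle replicates 1 and 2. Young replicate 2 and the library labelled melatonin 1 held 248 and 246 CPM of Cdk4, and the part of macrophage cells was not tested. With the melatonin label the 14 genes were 10 higher and 4 lower (median 0.43 against 0.02 over all genes), and Cdk6 changed by -1.51 ± 0.50, Ccnd1 by -0.99 ± 0.40 and Cdk4 by 0.68 ± 0.30. The edgeR adjusted p of these 3 genes lay between 0.297 and 0.425.

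Of 13 genes of pocket proteins and E2F factors, 4 were higher and 9 lower with age, and 10 higher and 3 lower with the melatonin label. Rb1, the retinoblastoma gene, had means of 31.9 ± 8.10 CPM for young and 48.9 ± 6.01 CPM for old libraries, and differed by 0.62 ± 0.24 with age (edgeR adjusted p = 0.344) and by -0.57 ± 0.22 with the melatonin label (0.333). Its groups did not overlap in either comparison, beside 9.28% of all genes above with age and 9.78% below with the melatonin label. The gaps were narrow, at 43.7 against 40.6 CPM with age and 41.4 against 40.7 CPM with the label. Rb1 was at 47.1 to 56.1 CPM in the macrophage-rich libraries, and the part of macrophage cells was not tested. Of 34 replication and mitosis genes downstream of E2F, 32 were lower with age (median -0.44) and 31 higher with the melatonin label (median 0.49). None of the 34 had an unadjusted p under 0.05 in either. The mean log2 CPM of these 34 genes was highest in young replicate 4 and in the library labelled melatonin 3 (6.04 in the latter). It was lowest in old vehicle replicates 9 and 5, at 3.52 and 3.95. Old vehicle replicates 2 and 8, at 4.98 and 5.32, lay above young replicates 2 and 5, at 4.66 and 4.76. Old vehicle replicates 1 and 3 lay above the library labelled melatonin 1 (4.39), but only replicate 3 above that labelled melatonin 5. The counts of 32 and 31 genes therefore do not mean that old vehicle libraries were lower throughout. The pair with Cdkn2a and Cdkn2b near 1 CPM had 4.76 and 4.95, within the 3.52 to 6.04 of the other libraries.

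Of 26 p53 target genes besides Cdkn1a, 23 were higher with age (median 0.39) and 21 lower with the melatonin label (median -0.36). Bax, which promotes apoptosis, differed by 0.75 ± 0.17 and -0.76 ± 0.20 (edgeR adjusted p = 0.315 and 0.286). The groups of Bax did not overlap in either comparison, beside the same shares of all genes as given for Rb1. The stress cytokine gene Gdf15 differed by 4.0 ± 1.39 and -4.25 ± 1.31. It was at 43.7 to 163 CPM in the 4 macrophage-rich libraries and at 7.12 and 8.63 CPM in old vehicle replicates 1 and 2, below the 10.7 CPM of young replicate 2, and the part of macrophage cells was not tested. The kinase gene Plk2 went the other way, by -1.23 ± 0.41 and 1.30 ± 0.42. Dram1, which promotes autophagy, differed by 1.11 ± 0.32 with age, and Zmat3, an RNA-binding p53 target, by -0.66 ± 0.20 with the melatonin label. The mean log2 CPM of this list was lowest, at 4.75 and 4.71, in young replicate 5 and the library labelled melatonin 5, and ran from 5.42 to 5.98 in the other 10. Old vehicle replicates 2 and 1, at 5.53 and 5.52, lay close to young replicate 2 (5.50). The libraries labelled melatonin 1 and 3 were each at 5.43. The macrophage-rich old vehicle libraries were at 5.60 to 5.98, and the part of macrophage cells was not tested.

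Of 23 genes that regulate transcription of the inhibitors, 7 were higher and 16 lower with age (median -0.22), and 15 higher and 8 lower with the melatonin label (median 0.16). Kdm6b, the demethylase that opens the Cdkn2a locus, had means of 75.4 ± 24.2 CPM for young and 42.3 ± 7.63 CPM for old libraries (-0.83 ± 0.27). For Tbx3, a repressor of that locus, they were 47.9 ± 32.5 and 14.7 ± 2.73 CPM (-1.70 ± 0.57). Both were higher with the melatonin label, by 0.75 ± 0.27 and 1.70 ± 0.60. The related repressor gene Tbx2 differed by 1.90 ± 0.79 and -1.76 ± 0.76, and Smad3, which carries the TGF-beta signal to Cdkn2b, by -0.40 ± 0.14 with age. The changes of Tbx2 were carried by old vehicle replicates 2 and 1, a matched pair, at 12.3 and 11.4 CPM. Old vehicle replicates 3, 5, 8 and 9 were at 2.67 to 3.64 CPM. Young replicate 5 and the library labelled melatonin 5 were near them, at 3.28 and 2.81 CPM. Of 10 genes for turnover of inhibitor proteins, 7 were lower with age (median -0.22) and 8 higher with the melatonin label (median 0.23). Cks1b, a cofactor for p27 degradation, differed by -0.61 ± 0.42 and 0.61 ± 0.40. The edgeR adjusted p of the genes named in this paragraph lay between 0.314 and 0.538.

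The genes whose log2 CPM most resembled each inhibitor over the 12 libraries were listed by Pearson r among 14132 others, as a description without a test, since the libraries form pairs. Nearest to Cdkn2a were Hoxc6, a patterning factor (r = 0.994), Cdkn2b (0.986) and Sytl4 (0.978). Nearest to Cdkn2b were Parm1 (0.987), Cdkn2a (0.986) and Hoxc6 (0.982). Hoxc6 itself ranged from 2.57 to 159 CPM. Nearest to Cdkn1a were Rnpep (0.995), Pitpna (0.993) and Arpc2 (0.990), and nearest to Cdkn1b were Smyd3 (0.985), Btf3l4 (0.982) and Atf7 (0.977). Cdkn2c was nearest to Cdh17 (0.979), Snd1 (0.976) and Eef2 (0.975), Cdkn1c to Pfn2 (0.951), Tpcn1 (0.936) and Tmod2 (0.933), and Cdkn2d to Dusp9 (0.951), Phf5a (0.944) and Eif3b (0.943). Among the inhibitors themselves, r was 0.986 for Cdkn2a with Cdkn2b, -0.886 for Cdkn1a with Cdkn1b and -0.842 for Cdkn2b with Cdkn2c.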

How the data were processed

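RNA sequencing of 12 libraries came in 2 tables of 18908 genes. Each library has 3 deposited values for a gene per the file headers, namely estimated counts, FPKM and TPM. The deposited estimated counts need not be whole (67.7% lay within 0.005 of a whole number), and the deposited FPKM values were not used. The authors' TPM values are scaled for gene length to a common total. RSEM, Bowtie2 and BWA are listed without versions or roles in the submitters' processing notes, with mm39 as build. The strand setting is not given in the sources used here. Count headers that spell vehicle as Vel were matched to titles by letter and number.

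Counts were rounded and each table was tested alone with edgeR 4.0.16 (R 4.3.3), using TMM, filterByExpr (minimum count 10, minimum total 15), the quasi-likelihood test and Benjamini-Hochberg adjustment over all genes tested, with 0.05 as threshold. The fit was tested on simulated data. SEs are the log2 change divided by the root of the F statistic. Log2 CPM used a prior count of 2. Promoter sequences are RefSeq's (GRCm38.p6), found for 6 of 7 genes. Both searches used 250 bases. The alternatives were DESeq2 1.42.0, RLE factors, limma-voom (limma 3.58.1), an unfiltered table, a threshold of 0.1, the macrophage mean as covariate, a replicate block, levels in the authors' TPM, all old vehicle libraries and leaving out libraries. Removal of the macrophage-rich libraries and averaging of matched libraries were added after seeing the data.

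By rule the text names the 7 genes, up to 4 members of each list with the smallest p, the locus neighbours and the 3 genes nearest each inhibitor by r. The members and lists were chosen with earlier results of these data known. The limit of 3 counts covers counting error only, and each ± is a spread between libraries (SD) or an SE of the fit.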

Additional observations from a re-analysis of the deposited data

Results flagged for a closer look

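Cdkn1c in old vehicle replicate 9 stood at 23.6 CPM, far above the other 5 old vehicle libraries, of which the next was at 4.18 CPM. The gap to that library was 0.873 of the whole range of the group, past Dixon's critical value for 6 libraries. The matched library, old vehicle replicate 5, was at 2.67 CPM. The groups of 6 were tested for 7 genes, and chance marks about 1 in 20 such groups of independent values. The old vehicle libraries form matched pairs, so neither the critical value nor that rate holds strictly here. The gap was taken on CPM and was not tested on the log2 scale.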

How the results depend on the processing

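No gene passed in either comparison by edgeR, with RLE factors, limma-voom, an unfiltered table, a threshold of 0.1 or the macrophage covariate. DESeq2 called 863 genes with age and 895 with the melatonin label. All 6 old vehicle libraries against the young ones gave 46, in a fit that counts matched libraries as separate replicates. With each matched old vehicle pair averaged, 0 genes were called. Leaving out each library in turn gave 0 with age and 0 to 602 with the melatonin label. Among the refits, 19 log2 changes turned sign, 4 newly passed and 4 counts moved. The 4 that newly passed were Cdkn1a in both comparisons and Cdkn1c with the melatonin label by DESeq2, and Cdkn1a without old vehicle replicate 1.

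The log2 changes of Cdkn1a, Cdkn1b and Cdkn2c kept their sign in every alternative run. Those that turned did so without a call. With single libraries left out, the age change ran from -4.34 to 0.18 for Cdkn1c, -1.08 to 1.24 for Cdkn2a, -0.25 to 1.31 for Cdkn2b and -0.15 to 0.20 for Cdkn2d. The melatonin change ran from -0.88 to 1.45 for Cdkn2a, -0.98 to 0.63 for Cdkn2b and -0.30 to 0.11 for Cdkn2d. By limma-voom Cdkn2a was at 1.24 with age and -0.86 with the melatonin label, and Cdkn2b at -1.32 with the latter. With the macrophage covariate Cdkn2d was at -0.016 with age and Cdkn2b at -0.071 with the melatonin label. Without both macrophage-rich libraries these were -0.019 and -0.57. On the authors' TPM scale the log2 ratio of mean Cdkn2d levels turned from 0.041 to -0.12 with age and from -0.058 to 0.079 with the melatonin label. The cause was not tested.

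With the replicate number as a block, the melatonin comparison called 0 genes, with 1123 at an unadjusted p under 0.05 against 1914 without it, and gave -0.20 for Cdkn2a and -0.70 for Cdkn2b. Both groups carry the same title numbers, but no label says that a number marks a shared animal or culture. Deviations of same-numbered libraries correlated at -0.23, 0.09 and -0.03. These values cannot decide whether the libraries are paired, since the melatonin columns may be mislabelled or re-used. For the age comparison no such block could be fitted, since its groups share replicate number 2 alone. With 3 libraries a group and matched libraries across tables, smaller differences of Cdkn1c, Cdkn2a and Cdkn2b are not detectable.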
